A study of Mus musculus with 12 samples.

Results

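Oocytes and the granulosa cells around them exchange signals in both directions, and the transcripts described here are 10 that encode the oocyte's side of that exchange. They are the secreted TGF-beta and BMP ligands *Gdf9*, *Bmp15*, *Bmp6* and *Tgfb2*, the other secreted factors *Fgf8*, *Rspo2*, *Il7* and *Oosp1*, the receptor *Kit*, and the gap-junction connexin *Gja4*. They were picked by name, whatever their values, and all 10 were found among the 24259 gene symbols measured.

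GDF9 and BMP15 are oocyte-secreted growth factors that drive the proliferation of granulosa cells and the expansion of the cumulus, and FGF8 acts with BMP15 on the metabolism of cumulus cells. In the other direction, KIT on the oocyte surface receives KIT ligand made by granulosa cells, and connexin 37, the product of *Gja4*, forms the channels through which the cumulus cells feed the oocyte. In a fully grown oocyte transcription is silent, so that the level of each protein depends on stored mRNA, which is either loaded on ribosomes or held in ribonucleoprotein particles (RNPs).

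The libraries were made from fully grown germinal vesicle (GV)-stage oocytes of 3-week-old mice, collected from the ovary 46 h after 5 IU of PMSG, a gonadotropin that stimulates follicle growth. Lysates of about 1500 oocytes, pooled over animals, were layered on sucrose gradients after treatment with cycloheximide, which holds ribosomes on the mRNA. Fractions 1 to 10 formed the RNP pool and fractions 11 to 28 the polysome pool, with 3 WT and 3 *Lsm14b*-KO libraries of each pool and 12 in all. WT mice were wild type at *Lsm14b*, and KO mice were homozygous for the Lsm14b tm1a(KOMP)Mbp allele, a reporter-tagged insertion present in every cell of the animal and kept on the same C57BL/6J background. *Lsm14b* encodes an RNA-binding protein of the oocyte, and the comparison asks how mRNA is shared between the pools with and without it.

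Levels are given as FPKM, fragments scaled to the transcript's length and to the library's mapped fragments, so that genes can be compared per length within a library. FPKM is a relative measure, so a ratio of the polysome to the RNP pool is not the absolute share of a transcript on ribosomes. In KO against WT, less RNA per oocyte and fewer oocytes cannot be told apart. Tests were limma on log2(FPKM + 1) with Benjamini-Hochberg adjustment over all genes tested, and a gene was called at an adjusted p under 0.05. Nothing in the labels says that the 3 libraries of a group came from separate collections of animals, so the p-values measure only the spread between these libraries.

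*Lsm14b* itself was listed at 11.3, 13.2 and 15.3 FPKM in the WT polysome libraries, at 27.4, 29.3 and 34.6 FPKM in the WT RNP libraries, and at no more than 0.893 FPKM in any KO library. All 10 oocyte markers examined, such as the zona pellucida gene *Zp3*, had a mean of at least 1 FPKM in each group. Their sum differed with genotype as well, at 6230.2 to 7025 FPKM in WT polysomes against 9972 to 11004 FPKM in KO polysomes, and at 3627 to 4024 FPKM in WT RNPs against 5463 to 5665 FPKM in KO RNPs, and its part in the differences reported below was not tested. The markers moved unequally: in polysomes *Nobox* was at 353 to 403 FPKM in WT against 1084 to 1173 FPKM in the KO, and *Mos* at 859 to 1297 FPKM against 515 to 639.8 FPKM. The steps between low FPKM values corresponded to 4.82 to 7.87 M fragments (M, mega) per library. This holds if the effective length is the annotated length less 200 bases and FPKM was not rescaled between libraries. On that basis the thinnest value among the 10 transcripts was *Fgf8* at 79.1 fragments, a counting error of 11.2%, and each of the others rested on at least 328 fragments in every library. *Bmp6*, *Tgfb2* and *Il7* overlap other annotated genes in part, and reads were not assigned by strand, so that their levels could include fragments of a neighbour.

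Some granulosa-cell markers differed with genotype, and others overlapped. *Inha*, the inhibin alpha subunit of granulosa cells, was listed at 9.58, 0 and 8.11 FPKM in the WT polysome libraries against 51.4, 39.4 and 39.5 FPKM in the KO polysome libraries. *Gja1*, the connexin of granulosa cells, was listed at 0 in all 3 WT polysome libraries and at 4.91, 10.9 and 6.98 FPKM in the KO ones. For *Fshr*, too, every KO polysome library exceeded every WT one (3.14 to 6.74 against 0 to 0.7 FPKM). By contrast, the polysome values of *Cyp19a1* overlapped: 62.0, 19.0 and 32.0 FPKM for WT, 14.6, 23.5 and 34.5 FPKM for the KO. *Kitl*, *Nr5a2* and *Serpine2* likewise overlapped between genotypes in polysomes. The 12 granulosa and cumulus markers summed to between 141 and 222 FPKM in WT polysomes, 229 and 312 in KO polysomes, 199 and 222 in WT RNPs and 221 and 262 in KO RNPs, and *Serpine2* made up most of each sum. *Ptx3* was listed at 0 in all 12 libraries, *Foxl2* and *Amhr2* were above 0 in 1 library each, and *Has2* in 2. The part of granulosa-cell RNA in the differences reported below was not tested.

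The transcripts end in 3′ UTRs that differ in the signals for polyadenylation. The cytoplasmic polyadenylation element (CPE) is bound by CPEB1 and governs whether a stored mRNA of the oocyte is kept silent or translated, and it works near the poly(A) signal. The windows below show, on GRCm38 with GENCODE M21 transcripts, the stretch around the last CPE or the poly(A) signal of 5 members that stood apart between the pools or genotypes, read 5′ to 3′ on the sense strand. Capitals mark a CPE (TTTTAT or TTTTAAT) or a poly(A) signal (AATAAA or ATTAAA).
*Gdf9*, chr11:53437866-53437895, plus strand: TTTTATgtgacggaagAATAAActgttgat
*Bmp15*, chrX:6314117-6314146, minus strand: ttaatcttaaagAATAAAttttcatttatg
*Oosp1*, chr19:11667562-11667591, minus strand: agctgtccctgcTTTTAATtgtataaaatc
*Gja4*, chr4:127311425-127311454, minus strand: ttatgatcctcaAATAAAcaggactccatc
*Rspo2*, chr15:43020797-43020826, minus strand: gttgtttttgtgcATTAAAaactcaaaaat

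Within the last 100 bases of the transcript, *Gdf9* and *Bmp6* held a CPE and the other 8 members did not. Among all 16882 genes whose annotated 3′ UTR was at least 100 bases long, 18.2% held a CPE in that window. In *Gdf9* the CPE began 39 bases from the end and the poly(A) signal 23 bases from the end. In *Oosp1* the last CPE began 120 bases from the end, and in *Bmp15* it began 530 bases from the end. *Gja4*, *Rspo2* and *Fgf8* held no CPE anywhere in the annotated 3′ UTR, against 57.2% of genes that held at least 1. Only these letters on the sense strand were searched, TTTTAAT can share letters with AATAAA, and a match is a description of sequence and not of binding.

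The levels spanned a wide range. In WT polysomes *Gdf9* had a mean of 15413 ± 866 FPKM (SD, n = 3) and ranked 1 of 24259 genes, *Bmp15* had 2830.2 ± 219 FPKM and ranked 11, and *Gja4* had 1096 ± 102 FPKM and ranked 50. *Rspo2*, *Oosp1* and *Kit* followed at 255, 176 and 97.1 FPKM, and from *Gdf9* down to *Kit* the libraries of neighbours in this order did not overlap. *Kit*, *Tgfb2*, *Fgf8*, *Il7* and *Bmp6*, between 97.1 and 25.6 FPKM, overlapped with the next in order. Together the 10 transcripts took 4.06% to 4.29% of the summed FPKM of a WT polysome library and 3.10% to 4.25% of a KO polysome library.

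In the WT RNP pool the order was different. *Gdf9* was again highest with 3006 ± 146 FPKM but ranked 10 of all genes, *Gja4* came next with 1703 ± 84.7 FPKM, ahead of *Bmp15* with 671 ± 38.2 FPKM, and *Oosp1* and *Fgf8* followed at 477 and 257 FPKM. *Tgfb2*, *Il7*, *Kit* and *Bmp6* overlapped with the next in order. The 10 transcripts took 1.45% to 1.50% of the summed FPKM of a WT RNP library.

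**Figure D1:**
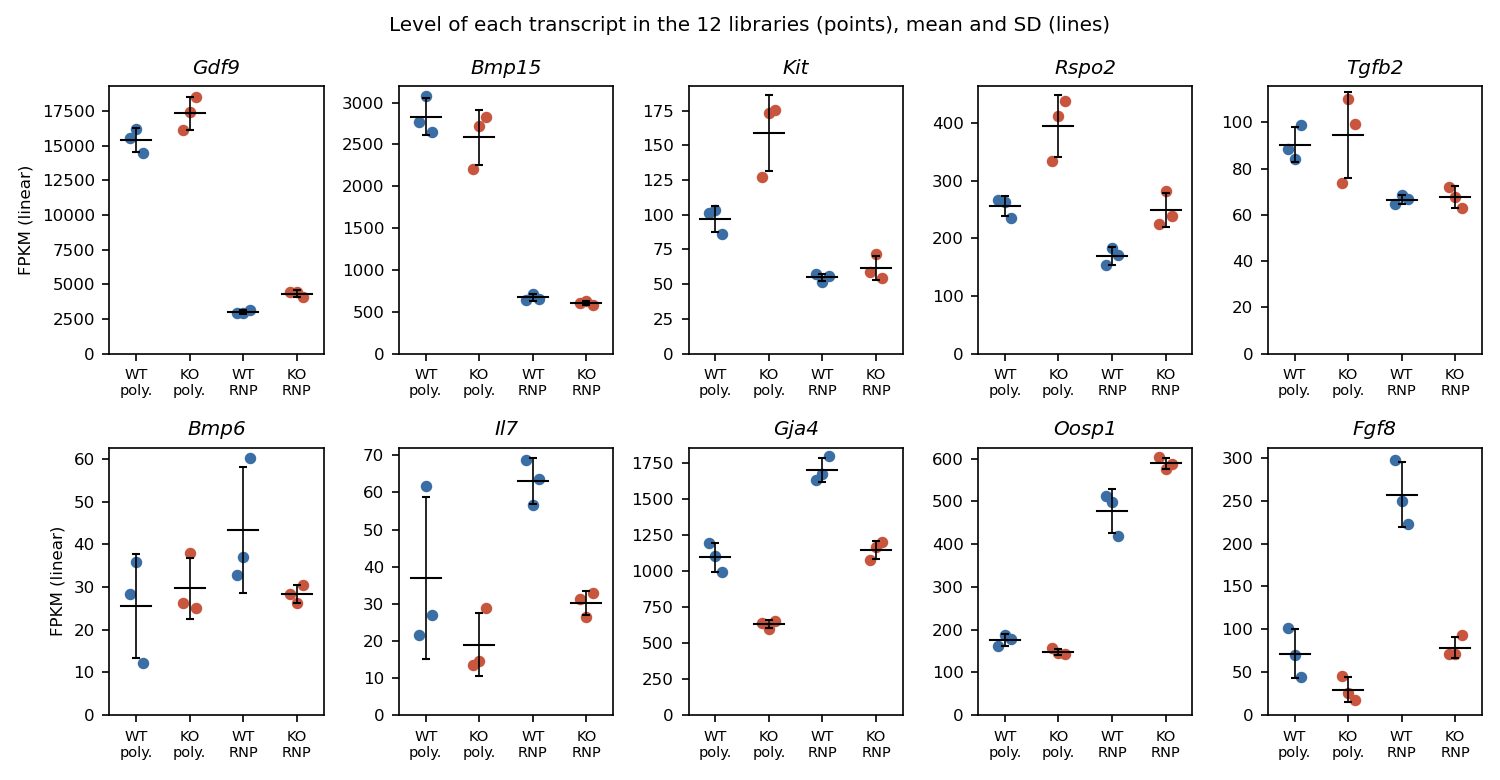
FPKM (linear axis from 0, a scale of its own for each transcript) of the 10 transcripts in the 12 libraries, as points, with the mean and SD of each group of 3 as lines. *Gdf9*, *Bmp15*, *Kit* and *Rspo2* sit higher in the polysome (poly.) libraries of both genotypes, and *Gja4*, *Oosp1* and *Fgf8* sit higher in the RNP libraries.

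The polysome and RNP pools were compared within WT to see where each transcript lay in the gradient of an oocyte with LSM14B. Of the 10 transcripts, 7 were called, where 14.7% of the 9574 genes tested were called. Of these, 4 were higher in polysomes, as were 7.97% of all genes, 3 were lower in polysomes, as were 6.72%, and the remaining 3 were not called. The libraries of the 2 pools did not overlap for 8 transcripts, against 34.6% of all genes tested. The median change of the 10 was -0.10 on the log2 scale, beside -0.09 for all genes tested. With no intensity trend the calls of *Rspo2*, *Kit* and *Gja4* in WT were lost, at adjusted p of 0.140, 0.0729 and 0.118.

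The ligands GDF9 and BMP15 were the transcripts most tilted to polysomes. *Gdf9* was at 15569, 16191 and 14480.1 FPKM in the WT polysome libraries and at 2925, 2919 and 3174 FPKM in the WT RNP libraries. Every polysome library exceeded every RNP library, by 5.13-fold between means, with a log2 difference of 2.36 (SE 0.07, limma adjusted p = 8.50e-07). *Bmp15* was at 2768, 3074 and 2649 FPKM in polysomes and at 641, 714 and 657 FPKM in RNPs. Again no library overlapped, the means differed 4.22-fold, and the log2 difference was 2.07 (SE 0.09, limma adjusted p = 4.50e-06). Among the genes tested these differences stood at percentiles 99.2 and 98.5.

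*Kit* and *Rspo2* tilted the same way by less. *Kit*, the receptor for granulosa-cell KIT ligand, was at 101, 104 and 86.4 FPKM in WT polysomes against 57.0, 51.9 and 55.7 FPKM in WT RNPs. The lowest polysome library lay above the highest RNP library, with a log2 difference of 0.81 (SE 0.16, limma adjusted p = 0.0127). *Rspo2* encodes R-spondin 2, a secreted factor that strengthens WNT signalling in its target cells, and was at 267, 264 and 236 FPKM in polysomes and 153, 184 and 171 FPKM in RNPs. These libraries did not overlap either, and the log2 difference was 0.59 (SE 0.13, limma adjusted p = 0.0167), which was not called without the first or the third WT RNP library (0.0659 and 0.0525).

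*Fgf8*, *Oosp1* and *Gja4* lay on the RNP side. *Fgf8* was at 101, 70.0 and 44.0 FPKM in WT polysomes against 298, 249 and 223 FPKM in WT RNPs. All RNP libraries were higher, 3.58-fold between means, with a polysome-less-RNP log2 difference of -1.89 (SE 0.28, limma adjusted p = 0.00294), although the polysome values themselves had a coefficient of variation of 40.0%. *Oosp1*, which encodes an oocyte-secreted protein, was at 161, 188 and 179 FPKM in polysomes against 514, 499 and 419 FPKM in RNPs. The groups lay far apart, with a log2 difference of -1.43 (SE 0.13, limma adjusted p = 0.000234). *Gja4* was at 1194, 1102 and 991 FPKM in polysomes and at 1634, 1677 and 1798 FPKM in RNPs, without overlap, and its log2 difference was -0.64 (SE 0.09, limma adjusted p = 0.00282).

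The remaining 3 ligands were not called in WT. *Tgfb2* was at 88.6, 84.1 and 98.7 FPKM in polysomes and at 64.5, 68.4 and 66.8 FPKM in RNPs, which did not overlap, but its log2 difference of 0.43 had a 95% interval of 0.08 to 0.79 and a limma adjusted p of 0.101. *Bmp6* was at 28.4, 36.0 and 12.3 FPKM in polysomes and 32.8, 37.0 and 60.3 FPKM in RNPs. *Il7*, a cytokine that signals through JAK-STAT, was at 21.7, 61.9 and 26.9 FPKM in polysomes and 68.8, 56.5 and 63.7 FPKM in RNPs. For both, the pools overlapped: the second *Il7* polysome library lay among the RNP libraries. Without that library *Il7* was called, at a log2 difference of -1.34 (limma adjusted p = 0.00899).

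In KO oocytes the same 7 transcripts were called in the same directions, where 29.2% of the 9851 genes tested were called (15.5% higher and 13.8% lower in polysomes), and again 8 transcripts did not overlap between pools against 44.2% of all genes. The log2 difference, polysome less RNP, was 2.00 (SE 0.07) for *Gdf9*, 2.08 (SE 0.10) for *Bmp15*, 1.34 (SE 0.16) for *Kit* and 0.66 (SE 0.13) for *Rspo2*. On the RNP side it was -1.98 (SE 0.09) for *Oosp1*, -1.49 (SE 0.31) for *Fgf8* and -0.86 (SE 0.08) for *Gja4*. The limma adjusted p of these 7 ran from 3.12e-07 for *Gdf9* to 0.00590 for *Fgf8*. *Tgfb2*, *Bmp6* and *Il7* were again not called, with log2 differences of 0.46, 0.04 and -0.72. *Tgfb2* was called without the first KO polysome library (0.62, adjusted p = 0.00758) and *Il7* without the third (-1.05, adjusted p = 0.00630).

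**Figure D2:**
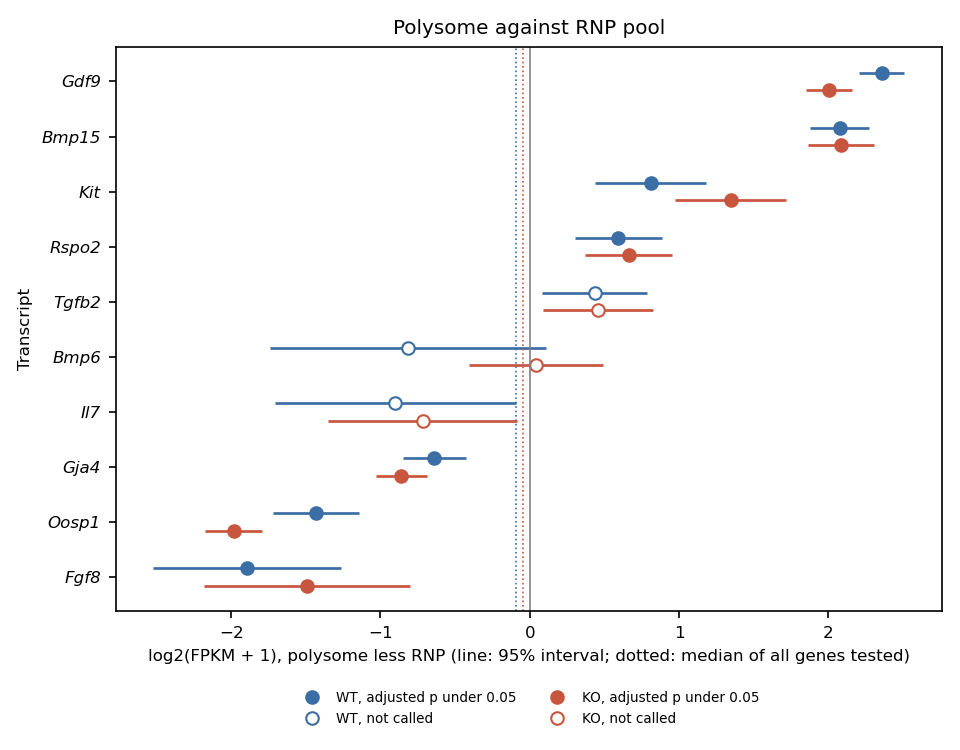
Difference between the polysome and the RNP pool on the log2(FPKM + 1) scale (horizontal axis) for each of the 10 transcripts, in WT (blue) and KO (red), with 95% intervals as lines, filled points for limma adjusted p under 0.05 and dotted lines for the median of all genes tested in each genotype. The transcripts run from *Gdf9* and *Bmp15*, near 2 in both genotypes, to *Fgf8* and *Oosp1*, between -1.43 and -1.98.

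The question for the knockout is which of these transcripts changed in each pool. In the polysome pool 3 of the 10 were called between KO and WT, 2 higher and 1 lower, where 10.4% of the 9536 genes tested were called, 5.64% higher and 4.73% lower. The libraries did not overlap for 4 transcripts, against 31.7% of all genes. In the RNP pool 6 were called, 3 higher and 3 lower, where 20.7% of the 9931 genes tested were called, 10.5% higher and 10.2% lower, and 8 transcripts did not overlap against 39.2%. The median change of the 10 was -0.05 in polysomes and -0.06 in RNPs, beside 0.10 and 0.05 for all genes tested. With no intensity trend in the limma fit, 0 members were called in polysomes and 2, *Fgf8* and *Il7*, in RNPs.

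*Gja4* was lower in both pools of the KO. It was at 641, 598 and 656 FPKM in the KO polysome libraries, each below every WT polysome library, and fell by 0.79 on the log2 scale (SE 0.10, limma adjusted p = 0.00386). In the KO RNP libraries it was at 1078, 1164 and 1199.6 FPKM, also below every WT library, and fell by 0.57 (SE 0.07, limma adjusted p = 0.000572). WT levels of *Gja4* were thus 1.74-fold and 1.48-fold those of the KO in the polysome and RNP pools. With no intensity trend the adjusted p was 0.0855 and 0.0594.

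*Fgf8* had the lowest KO means relative to WT of the 10 transcripts. In the RNP pool it was at 71.4, 71.5 and 93.2 FPKM in the KO against 223 to 298 FPKM in WT, a 3.26-fold difference with no overlap, and it fell by 1.69 on the log2 scale (SE 0.15, limma adjusted p = 0.000137). In the polysome pool it was at 45.4, 25.6 and 17.0 FPKM in the KO against 44.0 to 101 FPKM in WT. There the first KO library overlapped the third WT library, and the log2 difference of -1.29 (SE 0.40) was not called at a limma adjusted p of 0.0741. It was called without the first KO library (-1.66, adjusted p = 0.0448) or without the third WT library (-1.60, adjusted p = 0.0462).

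*Rspo2* was higher in both pools of the KO. It was at 334, 413 and 438 FPKM in KO polysomes, above all WT polysome libraries, and rose by 0.62 on the log2 scale (SE 0.13, limma adjusted p = 0.0239). In KO RNPs it was at 225, 282 and 239 FPKM, again above all WT libraries, and rose by 0.55 (SE 0.12, limma adjusted p = 0.0104). The call in polysomes was lost without the second or the third KO library (adjusted p = 0.0989 and 0.0992) or the third WT library (0.0560), and with no filter (0.0563).

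*Kit* was at 127, 174 and 176 FPKM in KO polysomes, above the highest WT polysome library at 104, and rose by 0.69 on the log2 scale (SE 0.17, limma adjusted p = 0.0387). In the RNP pool it was at 59.0, 71.5 and 54.5 FPKM in the KO, and 1 KO library lay within the WT range of 51.9 to 57.0 FPKM. The RNP difference was 0.16 (95% interval -0.17 to 0.49, limma adjusted p = 0.491). The polysome call was lost when the second or the third KO library or any of the WT libraries was left out, with adjusted p between 0.0566 and 0.148, and with no filter (0.0739).

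*Gdf9* changed in the RNP pool. It was at 4427, 4478 and 4051 FPKM in KO RNPs, above all WT RNP libraries, and rose by 0.52 on the log2 scale (SE 0.06, limma adjusted p = 0.000458), 1.44-fold between means. In polysomes the KO libraries were at 16108, 17406.5 and 18497 FPKM, and the lowest of them overlapped WT. The polysome difference was 0.17 (95% interval -0.01 to 0.35, limma adjusted p = 0.211). With no intensity trend the adjusted p of the RNP change was 0.0736. *Gdf9* ranked 4 of all genes by its mean in KO RNPs, against 10 in WT RNPs.

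*Bmp15* was not called in either pool. It was at 2205, 2723 and 2822 FPKM in KO polysomes, overlapping WT, with a log2 difference of -0.14 (95% interval -0.39 to 0.12, limma adjusted p = 0.487). In KO RNPs it was at 607, 623 and 585 FPKM, just below the lowest WT library at 641, with a log2 difference of -0.15 (95% interval -0.31 to 0.01, limma adjusted p = 0.179). Under quantile normalization it was called lower in both pools, by -0.46 (adjusted p = 0.0108) in polysomes and by -0.28 (adjusted p = 0.0172) in RNPs.

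*Oosp1* and *Il7* were called in the RNP pool and not in polysomes. *Oosp1* was at 603, 576 and 588 FPKM in KO RNPs, above all WT libraries, and rose by 0.31 on the log2 scale (SE 0.09, limma adjusted p = 0.0392), while in KO polysomes it was at 156, 146 and 143 FPKM, below all WT libraries, with a difference of -0.24 (limma adjusted p = 0.270). The RNP call of *Oosp1* was lost without any 1 of the KO RNP libraries or the third WT library, at adjusted p between 0.0705 and 0.125, and also with no filter (0.0997), quantile normalization (0.0783) or no intensity trend (0.258). *Il7* was at 31.3, 26.5 and 32.8 FPKM in KO RNPs, all below the WT libraries, and fell by 1.04 (SE 0.16, limma adjusted p = 0.00224). In KO polysomes *Il7* was at 13.4, 14.7 and 28.8 FPKM, overlapping WT, with a difference of -0.85 (95% interval -1.85 to 0.14, limma adjusted p = 0.253).

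*Bmp6* and *Tgfb2* were called in neither pool. *Bmp6* was at 26.1, 37.9 and 25.0 FPKM in KO polysomes and at 28.3, 26.3 and 30.5 FPKM in KO RNPs, where all 3 lay below the WT libraries with a log2 difference of -0.55 (95% interval -1.07 to -0.03, limma adjusted p = 0.128). *Tgfb2* was at 73.8, 110.35 and 99.4 FPKM in KO polysomes and at 72.3, 67.8 and 63.0 FPKM in KO RNPs. Its differences were 0.05 (95% interval -0.38 to 0.47) in polysomes and 0.02 (95% interval -0.26 to 0.30) in RNPs.

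**Figure D3:**
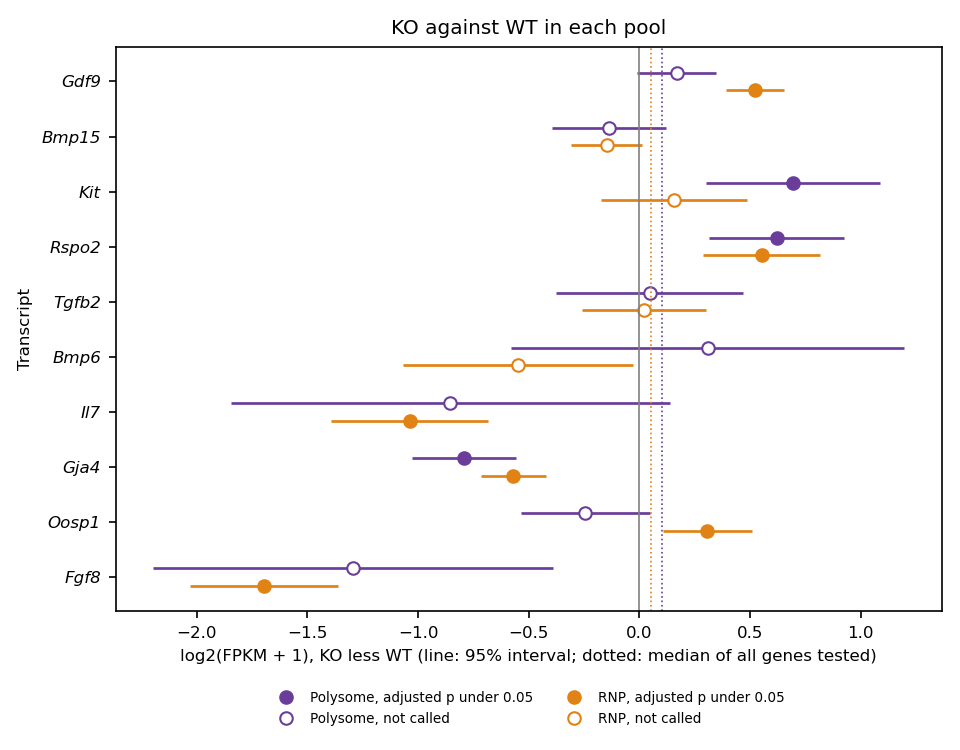
Difference between KO and WT on the log2(FPKM + 1) scale (horizontal axis) for each of the 10 transcripts, in the polysome pool (purple) and the RNP pool (orange), with 95% intervals as lines, filled points for limma adjusted p under 0.05 and dotted lines for the median of all genes tested in each pool. *Gja4* and *Rspo2* are filled in both pools, *Kit* in polysomes, and *Gdf9*, *Oosp1*, *Fgf8* and *Il7* in RNPs.

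A call in 1 pool and not in the other does not show that the pools differ, so the effect of the KO in polysomes was tested against its effect in RNPs with the 12 libraries in a single fit (the interaction). None of the 10 transcripts was called, where 0.237% of the 10949 genes tested were called. An unadjusted limma p under 0.05 was reached by 3 of the 10, and by 1220 of the 10949 genes. The change in polysomes less the change in RNPs was -0.35 (SE 0.09, limma adjusted p = 0.150) for *Gdf9*, -0.55 (SE 0.14, limma adjusted p = 0.151) for *Oosp1* and 0.54 (SE 0.23, limma adjusted p = 0.400) for *Kit*. The other 7 ranged from -0.22 for *Gja4* to 0.86 for *Bmp6*, and the interval of *Bmp6* ran from -0.19 to 1.90.

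GDF9 and BMP15 proteins form dimers with themselves and with each other, and the ratio of their transcripts can be read within a single library, where scaling between libraries does not enter. This ratio was chosen after the values of the members were seen. It was 5.63, 5.27 and 5.47 in WT polysomes and 7.30, 6.39 and 6.55 in KO polysomes, so that every KO library lay above every WT library and the means differed 1.24-fold. In RNPs the ratio was 4.56, 4.09 and 4.83 in WT and 7.30, 7.19 and 6.92 in the KO, again without overlap, with a 1.59-fold difference between means. The two-sided exact permutation test gave p = 0.1 in each pool, the smallest value that 3 against 3 libraries allow.

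**Figure D4:**
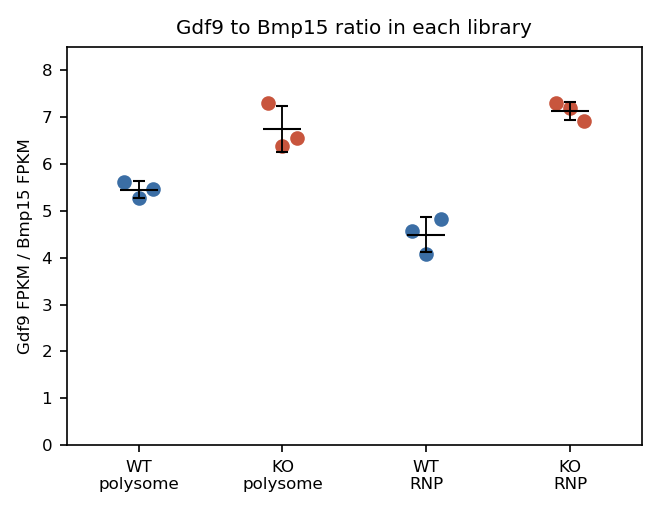
Ratio of *Gdf9* to *Bmp15* FPKM (linear axis from 0) in each of the 12 libraries, as points, with the mean and SD of each group of 3 as lines. All 6 KO libraries lie between 6.39 and 7.30 and all 6 WT libraries between 4.09 and 5.63.

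The genes that followed each transcript most closely were sought among 6680 genes that averaged at least 5 FPKM, by Pearson's r of log2(FPKM + 1) over the 12 libraries, which share 2 genotypes and 2 pools. *Gja4* was matched most closely by *Plat* (r = 0.986), which encodes tissue plasminogen activator, an mRNA known to be stored silent in GV oocytes and translated during maturation. *Plat* had means of 667 and 1687 FPKM in WT polysomes and RNPs and of 251 and 692 FPKM in the KO. *Gdf9* was matched by *Mat2b* and *Kmt2d* (r = 0.992 for each), and *Bmp15* by *Nlrp2*, *Puf60* and *Syne2* (r between 0.989 and 0.990). *Oosp1* was matched by *E330034G19Rik* (r = 0.994), *Kit* by *Rdx* (r = 0.983), *Rspo2* by *Gm13084* (r = 0.980) and *Fgf8* by *Sar1b* (r = 0.968). The closest matches of *Bmp6*, *Tgfb2* and *Il7* were *Net1* (r = 0.922), *Vbp1* (r = 0.954) and *Zfp839* (r = 0.955).

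Other genes of the same pathways, 130 in 8 lists, were read in the same fits. In polysomes 76 of them were tested between KO and WT, of which 4 were higher and 2 lower (7.89%, against 10.4% of all genes), and in RNPs 75 were tested, of which 8 were higher and 9 lower (22.7%, against 20.7%). Between the pools of WT 3 of 75 were higher and 8 lower in polysomes (14.7%, against 14.7% of all genes). Those lower included *Fstl3* (-2.48 on the log2 scale), *Smad1* (-2.30), *Cdh2* (-1.74), *Akt2* (-1.37), *Bmp5* (-1.23) and *Ctnnb1* (-0.87). Their limma adjusted p was between 0.0243 and 0.0472, and each of these calls was lost in 4 to 10 of 14 alternatives. Between the pools of the KO 12 of 74 were higher and 9 lower in polysomes (28.4%, against 29.2%). Those higher included *Inha* (2.57), *Lrp6* (0.83), *Smad3* (0.61) and *Ski* (0.38). Those lower included *Oosp3* (-1.78), *Bmp5* (-1.48), *Bmpr1a* (-1.16), *Cdh2* (-0.93), *Shc1* (-0.70), *Cdh1* (-0.65) and *Bmpr1b* (-0.56). Their limma adjusted p was at most 0.0494. The calls of *Lrp6*, *Ski*, *Bmpr1a*, *Bmpr1b*, *Cdh2* and *Shc1* were lost in 3 to 9 of 14 alternatives. None of 85 was called for the interaction. The shares called were thus near those of all genes.

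Among FGF receptors and feedback regulators 9 genes were tested in each pool. In polysomes 2 fell and none rose, where 10.4% of all genes were called. In RNPs 3 fell and 1 rose, where 20.7% of all genes were called. The median changes were -0.81 and -0.63 beside 0.10 and 0.05 for all genes. *Spry1*, an inhibitor of receptor tyrosine kinase signalling that FGF itself induces, was at 120.5, 77.2 and 94.6 FPKM in WT polysomes against 7.08, 3.09 and 4.22 FPKM in KO polysomes. It was likewise at 85.1, 73.1 and 106 FPKM in WT RNPs and at 5.81, 3.45 and 11.2 FPKM in KO RNPs. *Spry1* fell by 4.12 on the log2 scale in polysomes (SE 0.32, limma adjusted p = 0.000669) and by 3.62 in RNPs (SE 0.34, limma adjusted p = 0.000189), and no KO library came near a WT library. *Spry4*, a relative of *Spry1*, fell by 0.63 in RNPs (limma adjusted p = 0.00238), and *Spred1*, an inhibitor of the same cascade, rose by 1.04 (limma adjusted p = 0.0275). The call of *Spred1* was lost in 5 of 14 alternatives, at adjusted p up to 0.114, and that of *Spry4* in 1 (0.0517).

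In the RNP pool the oocyte secreted protein family moved in both directions. *Oosp2* was at 218, 196 and 159 FPKM in WT RNPs and at 284, 339 and 342 FPKM in KO RNPs, and rose by 0.76 on the log2 scale (limma adjusted p = 0.00437). *Oosp3* was at 233, 179 and 155 FPKM in WT RNPs and at 94.0, 80.5 and 99.2 FPKM in KO RNPs, and fell by 1.03 (limma adjusted p = 0.00243). Neither pair of groups overlapped (39.2% of all genes did not overlap). In polysomes neither gene was called between genotypes, at 0.17 for *Oosp2* (limma adjusted p = 0.353) and -1.09 for *Oosp3* (limma adjusted p = 0.0651). Between the pools of WT, *Oosp2* was higher in polysomes (log2 difference 0.72, limma adjusted p = 0.0115) and *Oosp3* was higher in RNPs (-1.72, limma adjusted p = 0.000953), the side on which *Oosp1* lay as well. The pool call of *Oosp2* in WT was lost with no intensity trend (0.108). Between the pools of the KO *Oosp2* was not called, with means of 352 FPKM in polysomes and 322 FPKM in RNPs.

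Of the R-spondin and WNT co-factors, 1 of 8 genes tested rose in KO polysomes, where 10.4% of all genes were called. In RNPs 2 of 7 rose and 1 fell, where 20.7% of all genes were called. *Wls*, which carries WNT proteins to the cell surface, was at 0.908, 5.98 and 1.31 FPKM in WT polysomes against 19.2, 19.2 and 17.7 FPKM in KO polysomes, and rose by 2.65 on the log2 scale (SE 0.53, limma adjusted p = 0.0176). In RNPs it rose by 3.00 (SE 0.34, limma adjusted p = 0.000522). The polysome call of *Wls* was lost without any 1 of the KO libraries, at adjusted p up to 0.0667, and with no filter (0.0551).

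Of 9 TGF-beta and BMP ligands, processing enzymes and antagonists tested in polysomes 2 rose, where 10.4% of all genes were called. They were *Inha* and *Inhba*, which encode inhibin and activin subunits that granulosa cells make. *Inha* rose by 3.27 on the log2 scale (limma adjusted p = 0.0364), and the call was lost without any 1 of the KO polysome libraries and in 3 other alternatives, at adjusted p up to 0.132. Of 7 genes of this list tested in RNPs 1 rose, where 20.7% of all genes were called. This was again *Inha*, by 2.79 (limma adjusted p = 0.00238) at a mean of 3.52 FPKM. Of 16 receptors and SMADs tested in RNPs 1 rose and 2 fell, where 20.7% of all genes were called. *Smad3*, the mediator of GDF9-type signals, rose by 0.45 (limma adjusted p = 0.0496), and *Ski*, a repressor of SMADs, fell by 0.49 (limma adjusted p = 0.0144). The call of *Smad3* was lost in 10 of its 14 alternatives and that of *Ski* in 2.

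None of the genes of KIT signalling was called between genotypes, of 16 tested in polysomes and 15 in RNPs. Between the pools of the KO, *Pdpk1* and *Pik3r1* of the PI3-kinase pathway were higher in polysomes, by 1.38 and 0.95 on the log2 scale (limma adjusted p = 0.00446 and 0.00262), and *Foxo3*, its transcription factor, was lower by 0.60 (limma adjusted p = 0.0313), a call lost in 6 of 14 alternatives at adjusted p up to 0.121. In WT *Pdpk1* and *Pik3r1* were not called, but their polysome libraries also lay above all their RNP libraries (34.6% of all genes did not overlap). Of 15 genes of gap junctions, adhesion and transzonal contacts tested in polysomes 1 rose, where 10.4% of all genes were called. It was the granulosa-cell connexin *Gja1*, which rose by 3.05 (limma adjusted p = 0.00611) at a mean of 3.80 FPKM. In RNPs 1 of 15 rose and 1 fell, where 20.7% of all genes were called. There *Ctnnd1* rose by 0.60 and *Ctnna1* fell by 0.68 (limma adjusted p = 0.0330 and 0.0409), both encoding catenins of the cadherin complex. These calls were lost in 7 and 11 of 14 alternatives. *Myo10*, a motor of the cell projections that reach between oocyte and granulosa cells, was higher in polysomes than in RNPs of the KO by 1.66 (limma adjusted p = 7.10e-05). In WT it was not called, but was at 53.5, 47.2 and 31.3 FPKM in polysomes and 24.7, 26.5 and 24.0 FPKM in RNPs, without overlap. The transducers of cytokine signals *Jak1* and *Stat3* were higher in polysomes of WT, by 1.44 and 1.36 (limma adjusted p = 0.0215 and 0.00415), and the call of *Jak1* was lost in 3 of 14 alternatives. Both were higher in polysomes of the KO as well, by 1.12 and 1.42 (limma adjusted p = 0.00123 and 0.000108), and these calls held in all 14 alternatives. In KO RNPs *Jak1* rose by 1.06 and its inhibitor *Socs3* fell by 1.72 (limma adjusted p = 0.0118 and 0.0131), and the call of *Jak1* was lost in 1 alternative (0.0503).

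**Figure D5:**
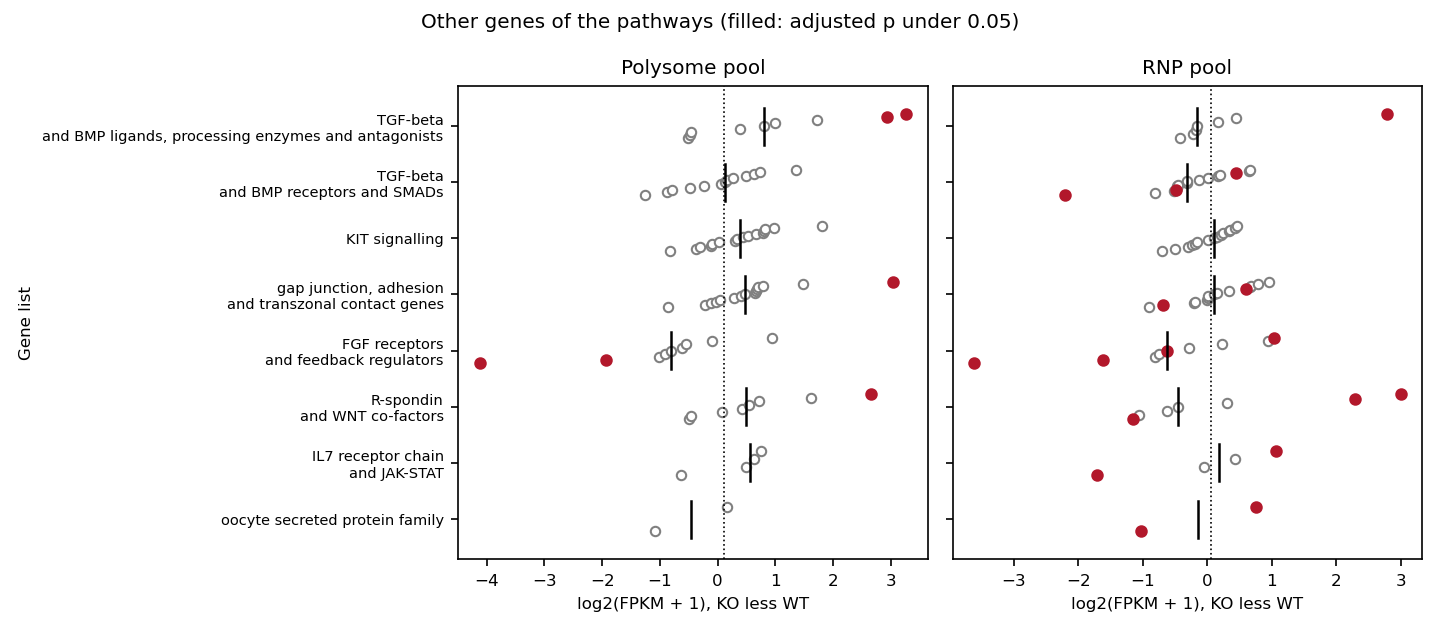
Change between KO and WT on the log2(FPKM + 1) scale (horizontal axis) of the tested genes of each of the 8 lists, in the polysome pool (left) and the RNP pool (right), with filled points for limma adjusted p under 0.05, bars for the median of the list and a dotted line for the median of all genes tested. *Spry1* is the point farthest to the left in both panels, at -4.12 and -3.62.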

How the data were processed

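RNA of the polysome and RNP pools was amplified by Smart-seq2 and sequenced from both ends, 150 bp each. The authors mapped reads to mm10 with TopHat2 2.0.13 and calculated the deposited FPKM per gene symbol with Cufflinks 2.2.1, and the annotation release is not given in the sources used here. Cuffnorm is also named among their tools, and whether it rescaled the deposited FPKM between libraries was not tested. Their Cuffdiff log2 changes and p-values between groups were not used. The highest sucrose concentration of the gradient was 50% in the labels, which differs from the study's methods, and the library kit named also differs.

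Groups came from the sample labels. Genes that reached 1 FPKM in 3 or more libraries of a comparison were fitted with limma 3.58.1 (R 4.3.3) with an intensity trend on log2(FPKM + 1), which understates changes of low genes. The 5 comparisons were KO against WT in each pool, their interaction, and the pools in each genotype, and those that share libraries are not independent. Tables and figures used Python 3.11.15, pandas 2.3.3, numpy 2.4.6, scipy 1.17.1 and matplotlib 3.10.9. Transcripts and 3′ UTRs came from GENCODE M21.

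The members, the lists and the tests were chosen with earlier results of these data known. Named genes were the members, *Lsm14b*, in each list and comparison up to 2 higher and 2 lower genes with the largest called change and a mean of at least 5 FPKM, and up to 3 of the genes most like each member. *Inhba*, the markers and the *Gdf9* to *Bmp15* ratio fall outside this rule and were named after their values were seen. Alternatives were other pseudocounts, filters and scalings, the replicate number as a block, no trend, and each library left out in turn. Tested on simulated data for the polysome comparison (9536 genes), the fit recovered 32% of 200 genes moved by a log2 difference of 1, and 81% of those moved by 2. For the interaction (10949 genes) it recovered 1% at 0.5, 12% at 1 and 49% at 2.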

Additional observations from a re-analysis of the deposited data

Results flagged for a closer look

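*Oosp1* was the transcript among the 10 whose KO libraries lay on opposite sides of WT in the pools: all 3 KO libraries were higher than WT in RNPs and all 3 were lower in polysomes. The change in polysomes less the change in RNPs was -0.55 on the log2 scale (SE 0.14), with a limma unadjusted p of 0.00212 and an adjusted p of 0.151, so the difference between the pools was not called. Over the alternatives tried it ran from -0.67 to -0.45, and its adjusted p from 0.113 to 0.496.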

How the results depend on the processing

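Each change kept its direction and its side of the threshold in 117 of 140 alternatives for KO against WT in polysomes, 127 of 140 in RNPs, 127 of 140 for the interaction, and 134 of 140 for the pools in each genotype. No member that was called changed sign.

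Between KO and WT in polysomes, 3 members and 989 genes were called, against 1 and 545 with no filter, 0 and 508 with no intensity trend, and 1 to 4 and 383 to 790 with 1 library left out. The count fell to 1 without the second or the third KO library. In RNPs 6 members and 2057 genes were called, against 2 members with no trend, and 5 to 6 and 1255 to 1911 with 1 library left out. For the interaction 0 members were called throughout, and 26 genes, against 6 with no trend and 0 to 26 with a replicate left out. For the pools of WT 7 members and 1406 genes were called, against 4 and 728 with no trend, and 6 to 8 and 780 to 1212 with 1 library left out. For the pools of the KO 7 members and 2881 genes were called, against 7 to 8 and 2030 to 2909 with 1 library left out. With 1 library left out fewer samples entered the fit, and for the other settings the cause was not tested.

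No pairing of the libraries by the labels' replicate numbers was seen: the correlation of same-numbered deviations from the group means was between -0.0207 and 0.0255. This cannot show whether same-numbered libraries came from the same collection or gradient. With the replicate number as a block, 0 genes were called for the interaction against 26, and 2 members were called in polysomes, where *Fgf8* was called (adjusted p = 0.0202) and *Rspo2* and *Kit* were not (0.0549 and 0.0703).

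Some uncalled changes near 0 changed sign or became 0. In polysomes *Gdf9*, which ranked 1 or 2 in every polysome library, became 0 under quantile normalization. That setting gives genes of equal rank the same value, so it could not show a change of *Gdf9*, though it is counted above as a changed direction. With 1 library left out, *Bmp6* in polysomes ran from -0.13 to 0.61 (negative without the third WT library) and *Tgfb2* from -0.075 to 0.21. In RNPs *Tgfb2* ran from -0.026 to 0.072. In the interaction *Bmp15* became -0.032 and *Tgfb2* -0.018 with libraries set to a common median, and *Bmp15* -0.27 with quantile normalization. With a replicate left out the interaction ran from -0.081 to 0.12 for *Bmp15*, -0.094 to 0.24 for *Tgfb2*, -0.18 to 0.70 for *Il7*, -0.036 to 0.17 for *Rspo2* and -0.026 to 0.85 for *Fgf8*. Between the pools of the KO *Bmp6* became -0.0061 with quantile normalization and ran from -0.14 to 0.15 with 1 library left out. Leaving out libraries was added for the *Gdf9* to *Bmp15* ratio after seeing the data, and the KO to WT fold of that ratio then ran from 1.19 to 1.27 in polysomes and from 1.52 to 1.65 in RNPs. Depth limits *Fgf8* most, whose thinnest library had a counting error of 11.2%.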
